A study of Homo sapiens with 5 samples.

Results

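The ephrins and their Eph receptors were followed in IMR90, a fibroblast line from normal human lung, after infection with RASV12, a permanently active RAS protein that drives fibroblasts into senescence. The 9 genes described are the Eph receptor genes EPHA2, EPHA4, EPHB2, EPHB3 and EPHB4 and the ephrin genes EFNA1, EFNA5, EFNB1 and EFNB2. They were taken by symbol from a table of 18568 genes, and all 9 passed the filter on low values that 6317 genes passed (2 or more libraries at 10 or above). All libraries came from cells infected with a retrovirus carrying RASV12, selected with puromycin at 1.5 µg/ml for 3 days, seeded on day 10 after infection and transfected 24 hours later with an antagomir, which is a chemically modified antisense oligonucleotide against a microRNA. The control group received a control antagomir (n = 2, with the letters B and C in the table), and the other group received an antagomir against miR-146a (n = 3, with the letters A, B and C). Total RNA was depleted of ribosomal RNA and sequenced. Nothing in the labels ties the libraries to separate cultures. The p-values therefore reflect variation among these 5 libraries, which may be technical and is estimated partly by pooling over genes.

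Eph receptors are receptor tyrosine kinases that bind ephrins on the surface of a neighbouring cell. A-type ephrins are held in the membrane by a lipid anchor and B-type ephrins span it, so that contact can signal into both cells. The system is best known for repulsion between cells, for keeping tissue boundaries sharp and for the separation of arteries (EFNB2) from veins (EPHB4). In fibroblasts it takes part in contact repulsion and in wound and fibrotic responses, and in epithelial cells transcription of EPHA2 is known to rise with RAS and ERK signalling.

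The antagomir in the treated cells is directed at miR-146a, a microRNA induced in senescence and inflammation. The mature strand is shown because its seed (bases 2 to 8, in capitals) decides which messenger RNAs it can pair with. It lies on chromosome 5 at 160485372 to 160485393, plus strand, in GRCh38.p14 (sequence from RefSeq).
hsa-miR-146a-5p: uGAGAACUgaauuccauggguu

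Of the 9 genes, 3 had a match of 7 bases in the longest annotated 3′ UTR (GENCODE 29), and none had a match of 8. A match of 7 covered bases 2 to 8, or bases 2 to 7 with an A opposite base 1. EPHB4 matched bases 2 to 8, the whole seed. EFNA5 and EFNB2 matched bases 2 to 7 with that A. Among 4956 tested genes with an annotated 3′ UTR, 20.6% had a match of 7 or 8 bases, counted in the same way. The sites are shown with the matched bases in capitals, since they are the places where blocking miR-146a could act directly on these transcripts.
EPHB4: gtcattgtggtcgcAGTTCTCtg
EFNA5: gtcactgccgagtctGTTCTCAc
EFNB2: cgacagcattttaagGTTCTCAg
The EPHB4 match begins at base 142 of a 3′ UTR of 2325 bases (chromosome 7, 100813927 to 100813933, minus strand, GRCh38). It is in the 3′ UTR of only 1 of the 3 coding transcripts of EPHB4. The EFNA5 match begins at base 2042 of 4366 (chromosome 5, 107379207 to 107379213, minus strand) and is in 2 of 3 coding transcripts. The EFNB2 match begins at base 2117 of 3309 (chromosome 13, 106490917 to 106490923, minus strand) and is in 2 of 2. EPHA2, EPHB3 and EFNA1 had no match to the 6 core bases of the seed in the 3′ UTR searched. EPHA4, EPHB2 and EFNB1 had 1 match each of those 6 bases only. A match describes letters and not a proven site.

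The tested cells had the transcripts of fibroblasts. The 12 listed fibroblast markers with a row all passed the filter, from FBLN1 at 320 to 640 normalized reads to FN1 at 71833 to 97771. Of the listed markers of other cell types with a row, 4 of 7 endothelial, 2 of 6 epithelial and 3 of 7 leukocyte markers passed the filter. Those of endothelium were EGFL7 (81.2 to 118 normalized reads), CLDN5 (19.2 to 56.6), ESAM (16.2 to 30.2) and ERG (10.0 to 29.3). Those of epithelium were CLDN4 (43.5 to 70.3) and ELF3 (6.07 to 35.3). Those of leukocytes were CD68 (5.73 to 24.6), CD14 (15.2 to 17.2) and CSF1R (8.40 to 19.1). These levels are like those of EPHB3 and EFNA1. Markers that did not pass included CDH5 (4.72 to 9.10) and CD34 (0.913 to 1.91) of endothelium. They also included CDH1 and ESRP1 of epithelium, at most 0.944 and 1.01, and CD3E of T cells, at 0 in all 5 libraries. Libraries with the letter C were unlike the other 3. That split was known from earlier results of these same data, so the calls and p-values for it describe a split already seen. HRAS, one of the RAS genes, had 3610 (B) and 10250 (C) normalized reads under the control antagomir, against 4265 (A), 4008 (B) and 9631 (C) under anti-miR-146a. The sources used here do not give the meaning of the letters, and each letter may stand for anything shared by the libraries that carry it. With the antagomir as the other term, 1866 of 6317 genes (29.5%) were higher or lower in the C libraries at an adjusted p under 0.05 (limma, Benjamini-Hochberg over all tested genes). Results are therefore given for both contrasts, and for the antagomir with and without the C libraries. The rows used here held 8430859 to 9283950 reads in each library, which is part of its full depth.

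EPHA2 was the most abundant of the 9 genes per length of exon, and the transcripts of receptors outweighed those of ephrins. Levels between genes are compared as normalized reads per kilobase of exon (GENCODE 29), since longer transcripts give more reads. EPHA2 had 495 ± 156 per kilobase over the 5 libraries (SD, n = 5), with a range of 332 to 703. It lay above EPHB2 at 232 ± 20.3 and EPHB4 at 225 ± 61.1, whose ranges overlapped. EFNB1 followed at 164 ± 31.2, so that it was the most abundant ephrin, and its range overlapped that of EPHB4. EFNB2 (67.9 ± 8.33) was above EPHA4 (47.1 ± 8.33) and EFNA5 (40.0 ± 6.90), and the lowest were EPHB3 (15.1 ± 3.67) and EFNA1 (8.09 ± 1.89). The ranges of EPHA4 and EFNA5 overlapped, and so did those of EPHB3 and EFNA1. Summed over the 5 receptors the level per kilobase was 867 to 1147 across libraries, and over the 4 ephrins it was 247 to 315. The order depends on the length taken for a gene: with the longest coding transcript, chosen after the data were seen, EPHB4 (334 per kilobase) moved above EPHB2 (268). The range of EPHA2 then overlapped that of EPHB4, and in control B EPHB4 (401) was above EPHA2 (349). With that length the ranges of EFNB2 and EPHA4 also overlapped.

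**Figure D1:**
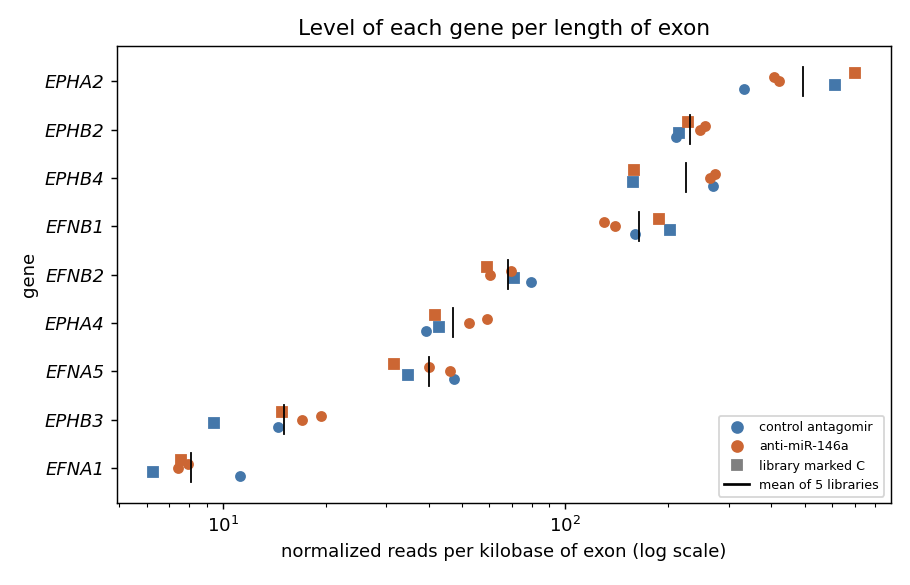
Normalized reads per kilobase of exon (log scale) for the 9 genes, 1 point per library, coloured by antagomir, with squares for the libraries marked C and a black line at the mean of 5 libraries. EPHA2 is highest at 332 to 703 and EFNA1 lowest at 6.25 to 11.3.

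EPHA2, the receptor for which EFNA1 is a high-affinity ligand, was the member with the largest difference between the C libraries and the rest. Its gene lies on chromosome 1 at 16124337 to 16156087, minus strand (GRCh38). It had 1382 (B) and 2546 (C) normalized reads under the control antagomir, against 1750 (A), 1693 (B) and 2924 (C) under anti-miR-146a. Both C libraries were above all others, under either antagomir: 1.84-fold over B among controls and 1.70-fold over the mean of A and B with anti-miR-146a. With the antagomir as the other term, the C libraries were higher by 0.81 on the log2(value + 1) scale (SE 0.08, 1.76-fold, limma adjusted p = 2.54e-06). In a bulk sample fewer cells of a type and less RNA per cell cannot be told apart. HRAS was also higher in the C libraries (log2 difference 1.34, SE 0.08), and its part in the EPHA2 difference was not tested. The summed fibroblast markers were also higher there, at 296655 to 313729 normalized reads against 217237 to 245833 in the other libraries. The 7 endothelial markers summed to 215.5 to 229.6 against 146.04 to 159.5. The 6 epithelial markers were lower there, at 59.7 to 87.7 against 96.3 to 103, and the 7 leukocyte markers summed to 35.5 to 50.6 against 43.9 to 61.2, with overlap. The part of these markers in the differences between C and the rest was not tested.

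EPHB4, the venous partner of EFNB2, differed by about as much in the opposite direction. Its gene lies on chromosome 7 at 100802565 to 100827521, minus strand. It had 1737 (B) and 1013 (C) normalized reads under the control antagomir, against 1708 (A), 1757 (B) and 1022 (C) under anti-miR-146a. The 3 libraries not marked C lay within 1708 to 1757, and the mean of both C libraries was 0.587 of theirs. The C libraries were lower by a log2 difference of −0.77 (SE 0.08, limma adjusted p = 5.24e-06). A stretch of 69 bases, 1.07% of the EPHB4 exons, overlaps SLC12A9 on the other strand, and whether reads were counted by strand is not stated for these data.

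EFNB1 was also higher, and EFNA5 lower, in the C libraries. EFNB1, a transmembrane ligand of B-type receptors (chromosome X, 68828997 to 68842147, plus strand), had 531 (B) and 673 (C) normalized reads under the control antagomir, against 463 (A), 429.9 (B) and 623 (C) under anti-miR-146a. Its C libraries were higher by 0.42 (log2, SE 0.10, limma adjusted p = 0.00428), and the groups did not overlap. EFNA5, a lipid-anchored ligand of A-type receptors that guides growing axons away (chromosome 5, 107376889 to 107670895, minus strand), had 271 (B) and 199 (C) normalized reads under the control antagomir, against 262 (A), 229 (B) and 180.0 (C) under anti-miR-146a. Its C libraries were lower by −0.44 (log2, SE 0.12, limma adjusted p = 0.0116), without overlap. Neither call held in every fit. EFNB1 did not pass without anti-miR-146a C, with only control C left of the C libraries (log2 difference 0.34). With no filter its limma adjusted p was 0.0494. EFNA5 had a limma adjusted p of 0.0713 without anti-miR-146a A and 0.0741 with no filter. In DESeq2, which called 3 of 9 members and 19.4% of its genes, EFNA5 had an adjusted p of 0.0647.

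**Figure D2:**
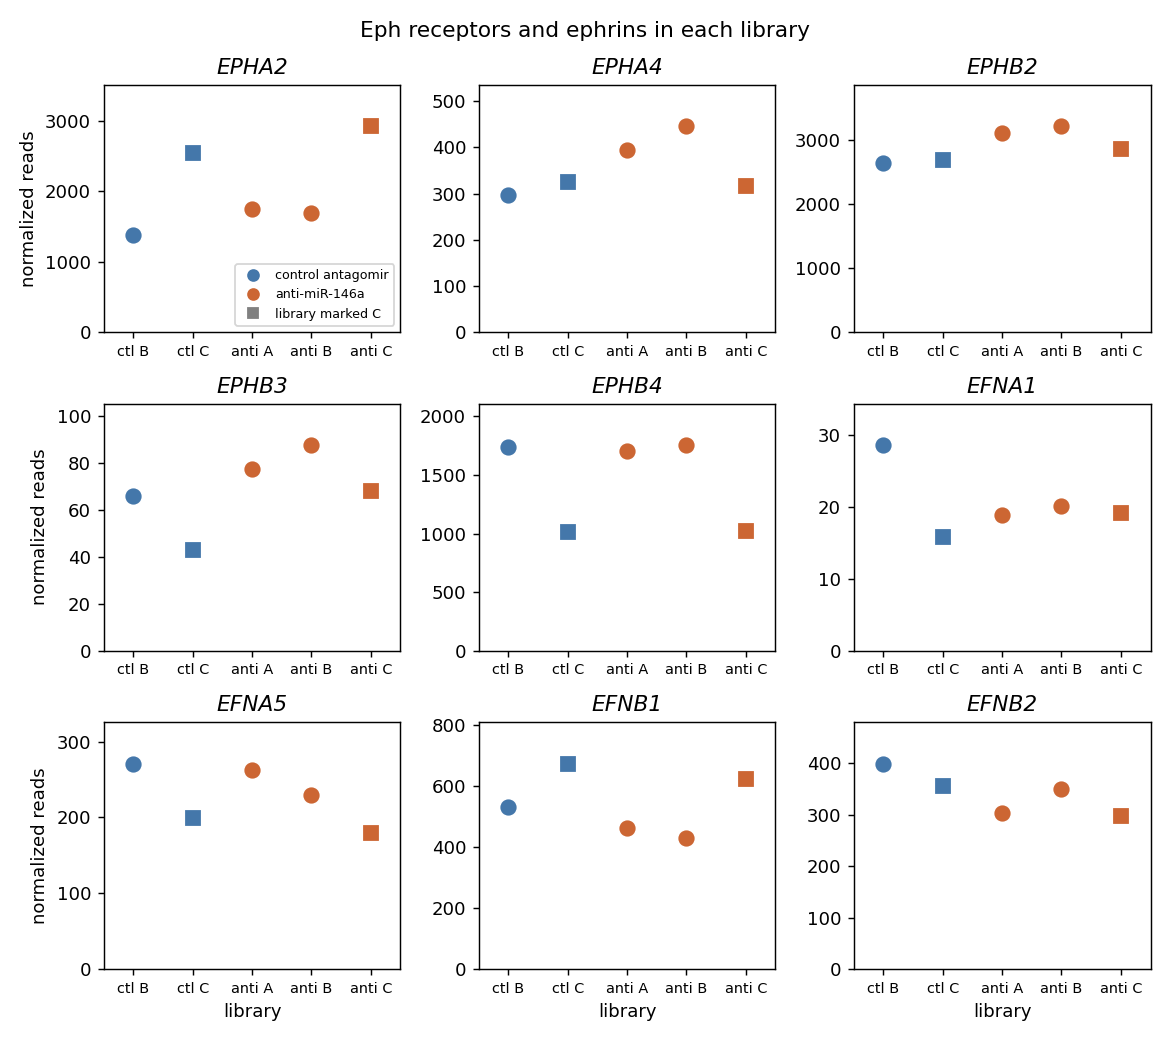
Normalized reads of the 9 genes in each library (each panel has its own axis from 0), blue for the control antagomir, orange for anti-miR-146a, squares for the libraries marked C. EPHA2 and EFNB1 are highest and EPHB4 and EFNA5 lowest in both squares, while EPHB2, EPHB3 and EFNB2 separate by colour.

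In all, 4 of the 9 genes passed for the C libraries, 2 higher and 2 lower, against a background of 29.5% of tested genes (17.2% higher and 12.3% lower). The groups did not overlap for those 4, as for 44.6% of all tested genes. The median log2 difference was −0.18 over the 9 and 0.015 over all tested genes. The median size of the difference, without its sign, was 0.42 over the 9 and 0.23 over all. Of 12 other receptor tyrosine kinases tested, 5 passed (3 higher, 2 lower). No test was made between these lists. The remaining members of the 9 did not pass in the fit of all 5 libraries. Their log2 difference was −0.42 for EPHB3 (SE 0.18, limma adjusted p = 0.0979) and −0.36 for EFNA1 (SE 0.31). It was −0.18 for EPHA4 (SE 0.13), −0.15 for EFNB2 (SE 0.11) and −0.07 for EPHB2 (SE 0.08). Without control B or without control C, the log2 difference of EPHA4 was −0.41. Both fits give the same estimate, from the treated libraries only, since the remaining control is taken up by the antagomir term. EPHA4 had the opposite sign without anti-miR-146a C (0.13).

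EPHA2 took a larger share, and EPHB4 a smaller one, of the receptor transcripts in both C libraries than in the other 3. Per kilobase of exon, EPHA2 made up 38.4% and 59.1% of the 5 receptors in controls B and C. With anti-miR-146a it made up 41.9% and 40.1% in A and B and 61.3% in C. The share of EPHB4 was 15.2% in control C and 13.8% in anti-miR-146a C, against 31.2% in control B, 26.4% in anti-miR-146a A and 26.9% in anti-miR-146a B. The ratio of EPHA2 to EPHB4 per kilobase was 1.23 (B) and 3.89 (C) under the control antagomir, against 1.59 (A), 1.49 (B) and 4.43 (C) under anti-miR-146a. Among the 4 ephrins, EFNB1 made up 64.5% and 65.6% in the C libraries and 52.4% to 55.1% in the others. Both shares rest on the exon lengths used.

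**Figure D3:**
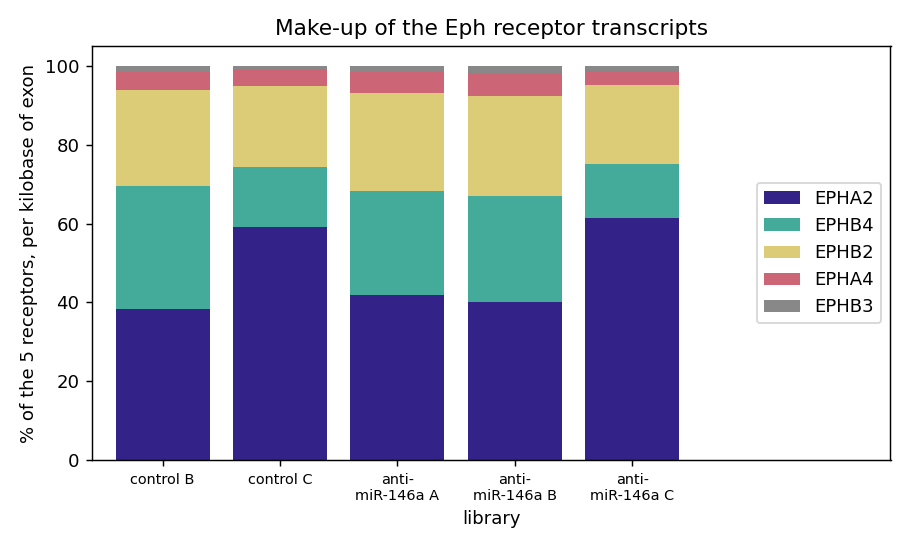
Share of each of the 5 Eph receptors in their summed normalized reads per kilobase of exon (percent, bars from 0 to 100), 1 bar per library. EPHA2 takes 59.1% and 61.3% in the C libraries and 38.4% to 41.9% in the others, and EPHB4 takes 15.2% and 13.8% against 26.4% to 31.2%.

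The sequences before the starts of EPHA2 and EPHB4 are shown because these are the members with the largest differences, in opposite directions. Each window runs from 250 bases before the RefSeq start to 50 after it (GRCh38.p14, minus strand for both genes). Capitals mark GGGGCGG on either strand, a GC box letter pattern of SP and KLF factors, which 30.8% of 35116 promoters hold.
EPHA2 (chr1:16156020-16156319): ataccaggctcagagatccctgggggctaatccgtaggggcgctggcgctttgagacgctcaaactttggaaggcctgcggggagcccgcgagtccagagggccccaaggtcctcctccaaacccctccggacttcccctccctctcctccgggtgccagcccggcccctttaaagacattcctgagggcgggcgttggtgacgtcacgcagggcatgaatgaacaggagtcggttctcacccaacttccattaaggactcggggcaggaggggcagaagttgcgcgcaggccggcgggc
EPHB4 (chr7:100827474-100827773): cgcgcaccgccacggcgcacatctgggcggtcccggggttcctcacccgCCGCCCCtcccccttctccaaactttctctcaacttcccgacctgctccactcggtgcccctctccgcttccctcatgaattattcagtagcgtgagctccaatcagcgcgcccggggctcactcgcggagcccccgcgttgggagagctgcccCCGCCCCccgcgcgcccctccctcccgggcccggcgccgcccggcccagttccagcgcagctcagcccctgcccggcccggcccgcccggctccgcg
EPHB4 held the pattern 2 times and EPHA2 did not. Neither window held TGANTCA (AP-1, in 7.71% of promoters) or CCGGAAG (ETS, in 10.3%), searched on both strands, and no marked matches overlap. The windows had 64.3% and 74.3% G and C, against a median of 58.7% over all promoters. These are descriptions of letters within the windows.

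The antagomir contrast compares cells with miR-146a blocked with cells given the control antagomir. None of the 9 genes passed it in limma over all 5 libraries: 0 of 9, and 0 of 6317 genes tested (0%). At an unadjusted p under 0.05 there were 0 of the 9 and 715 of all. edgeR on recovered reads also called 0 of 9 (0 of 6317 genes), and DESeq2 0 of 9, against 42 of 6441 genes (0.652%). In the authors' deposited table none of the 9 has an adjusted p under 0.05, against 144 of 5593 rows with such a value (2.57%). The lowest adjusted p of the 9 in that table is 0.497, for EPHB2.

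Over all 5 libraries the 5 receptors had positive and the 4 ephrins negative fitted differences, none of which passed the test. Among tested relatives, EPHA5 (−0.66) and EFNA4 (0.09) went against that split, and EPHA7 (0.42) and EPHB1 (0.12) went with it. EPHA8, which passed the filter through treated libraries alone, is left out here. EPHB4 was negative without the C libraries (−0.0041) and in DESeq2 with C as a term (−0.021). Over all tested genes 3216 were positive and 3101 negative. EPHB2, a receptor of B-type ephrins with roles in axon guidance and in the position of intestinal cells, had 2633 (B) and 2682 (C) normalized reads under the control antagomir, against 3104 (A), 3212 (B) and 2858 (C) under anti-miR-146a, so every treated library was above both controls. Its log2 fold change was 0.20 (SE 0.10, 1.15-fold, limma adjusted p = 0.501). It had the highest mean of the 9 in normalized reads (2898), although EPHA2 was above it in anti-miR-146a C, and its gene spans chromosome 1 from 22710839 to 22921500, plus strand.

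EPHB3, a close relative of EPHB2 with much lower levels, had 65.9 (B) and 42.9 (C) normalized reads under the control antagomir, against 77.4 (A), 87.6 (B) and 67.8 (C) under anti-miR-146a. The groups did not overlap, but the nearest libraries, control B and anti-miR-146a C, were 65.9 and 67.8. The log2 fold change was 0.53 (SE 0.26, limma adjusted p = 0.488), and it was 0.83 without control B and 0.23 without control C. The gene lies on chromosome 3 at 184561784 to 184582409, plus strand.

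EFNB2, the arterial ephrin and a ligand of EPHB4 and other B-type receptors, was lower in every treated library. It had 399 (B) and 355 (C) normalized reads under the control antagomir, against 303 (A), 349.6 (B) and 297 (C) under anti-miR-146a. Control C (355) and anti-miR-146a B (349.6) were nearly equal. The log2 fold change was −0.25 (SE 0.14, limma adjusted p = 0.533). Its row lies on chromosome 13 at 106489731 to 106535114, minus strand. The antisense gene AL138689.2 overlaps 26.2% of the EFNB2 exons, so without a known strand setting part of these reads could belong to it. Groups without overlap were seen in 3 of the 9 genes and in 30.0% of all tested genes.

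For the other members the antagomir groups overlapped. EPHA4, the receptor that binds ephrins of both types (chromosome 2, 221418027 to 221574202, minus strand), had 297 (B) and 325 (C) normalized reads under the control antagomir, against 396 (A), 446 (B) and 316 (C) under anti-miR-146a, so the treated libraries A and B were above both controls and library C was not. The antisense gene AC079834.2 overlaps 4.67% of its exons. Its log2 fold change was 0.30 (SE 0.18). Within letters the log2 difference was 0.59 for B and −0.04 for C. The test of whether the antagomir difference itself varied between the C libraries and the rest gave a limma adjusted p of 0.161 for EPHA4, and 0.675 or more for the other 8 genes. That test called 151 of 6317 genes (2.39%).

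EPHA2, EPHB4, EFNA5, EFNB1 and EFNA1 had log2 fold changes of 0.13 (SE 0.33), 0.13 (SE 0.32), −0.07 (SE 0.22), −0.26 (SE 0.20) and −0.13 (SE 0.34) with the antagomir as the only term. The sign turned for EPHA2 without control B (−0.31) or anti-miR-146a C (−0.12), for EPHB4 without control C (−0.26) or anti-miR-146a B (−0.0063), for EFNA5 without control B (0.15) or anti-miR-146a C (0.079) and for EFNA1 without control B (0.27). EFNA1, a lipid-anchored ligand (chromosome 1, 155127460 to 155134857, plus strand), had 28.6 (B) and 15.9 (C) normalized reads under the control antagomir, against 18.9 (A), 20.1 (B) and 19.2 (C) under anti-miR-146a. Control B was high, and the other 4 were alike. The gene rested on 17 to 30 reads a library. Its 30 reads in control B have an exact Poisson 95% interval of 20.2 to 42.8 and its 17 reads in control C one of 9.90 to 27.2, for counting error only, and these intervals overlap.

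With the C libraries as a second term, which takes the difference between C and the other letters out of the spread, EPHA2 passed as higher with anti-miR-146a. Its log2 fold change was 0.27 (SE 0.08, limma adjusted p = 0.0367), in a fit that called 975 of 6317 genes (15.4%, and 8.64% as higher), so 1 of 9 members is near the background. Library B was above control B by 0.29 (log2), library A above control B by 0.34 and library C above control C by 0.20. edgeR with this term gave EPHA2 an adjusted p of 0.0382 and called 15.7% of genes, and DESeq2 with it called 0 of 8 members with an adjusted p, against 450 of 4949 genes (9.09%). Both were chosen after the data were seen. With the column letter as a replicate block, 0 of 9 members and 10.1% of genes passed. Anti-miR-146a A is the only library with its letter, so the block takes it up. The differences then equal those of the fit without that library. In the limma fit with the C term EPHB4 had a difference of 0.0028 (SE 0.08) and EPHB2 one of 0.19 (SE 0.08). EPHA4 had 0.27 (SE 0.13), EPHB3 0.46 (SE 0.18), EFNB2 −0.28 (SE 0.11), EFNB1 −0.19 (SE 0.10), EFNA1 −0.19 (SE 0.31) and EFNA5 −0.14 (SE 0.12), and none of these passed.

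Without both C libraries, 1 control and 2 treated libraries remained, and the lone control was taken to vary like the treated pair. That fit called 3 of the 9 genes as higher, against 1568 of 6083 genes in either direction (25.8%) and 12.5% higher: EPHA2 (log2 fold change 0.32, limma adjusted p = 0.00846), EPHA4 (0.50, adjusted p = 0.00149) and EPHB2 (0.26, adjusted p = 0.0241). No ephrin passed there.

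**Figure D4:**
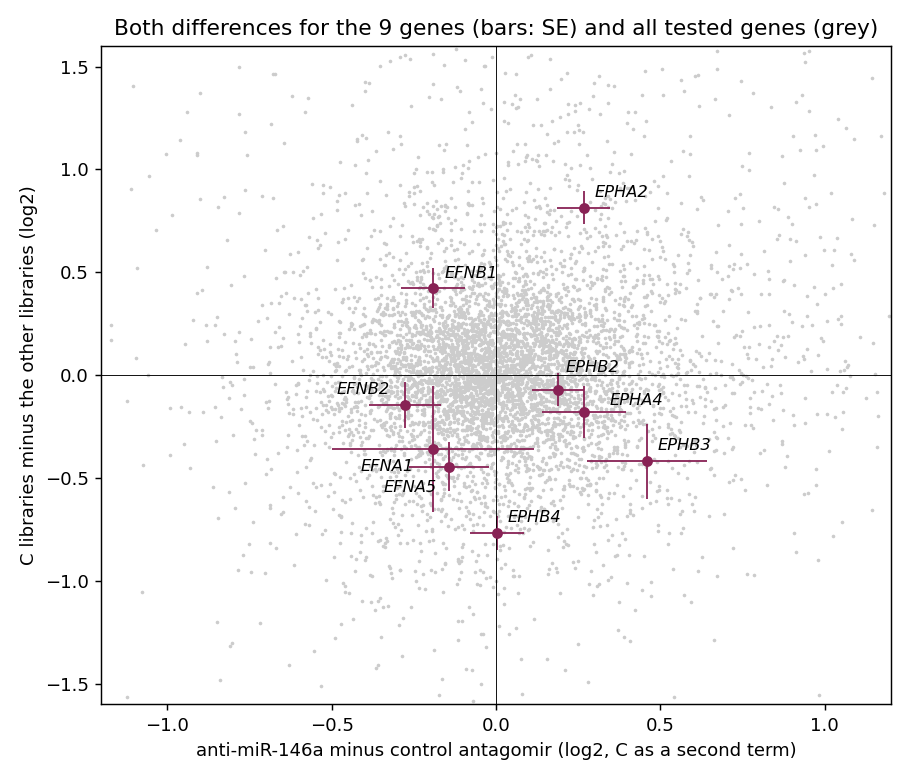
Difference between antagomirs (x axis, log2) and between the C libraries and the rest (y axis, log2), both from the limma model with both terms. The 9 genes are shown with SE bars over all tested genes in grey, of which 192 lie outside the plotted range. EPHA2 at 0.27 and 0.81 and EPHB4 at 0.0028 and −0.77 lie farthest from 0 on the y axis.

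Of the other 13 genes of the family in the table, EFNA4, EPHA5, EPHA7, EPHA8 and EPHB1 passed the filter, and the other 8 had at most 14.2 normalized reads in any library. For the C libraries 4 of these 5 passed, 3 higher and 1 lower, with overlapping groups for EPHA8. Per kilobase of exon EFNA4 (74.0 ± 18.0, SD, n = 5) had a higher mean than EFNB2, with overlapping ranges, and the mean of EPHA5 (11.0 ± 4.71) lay between those of EPHB3 and EFNA1. EFNA4 lies in the chromosome 1 cluster that also holds EFNA3 and EFNA1, and had 121 (B) and 63.4 (C) normalized reads under the control antagomir, against 98.2 (A), 106 (B) and 78.9 (C) under anti-miR-146a. It was lower in the C libraries (log2 difference −0.60, SE 0.17, limma adjusted p = 0.0149), and its antagomir log2 fold change was 0.09 (SE 0.31). Part of its exons (15.0%) is shared on the same strand with the read-through gene model AL691442.1, so its reads are uncertain. EPHA5, a receptor of the nervous system, had 100.2 (B) and 171 (C) normalized reads under the control antagomir, against 50.03 (A), 84.0 (B) and 134 (C) under anti-miR-146a, higher in the C libraries by 0.92 (SE 0.20, limma adjusted p = 0.00281). Its antagomir log2 fold change was −0.66 (SE 0.44, limma adjusted p = 0.614).

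EPHA7 had 18.1 (B) and 31.7 (C) normalized reads under the control antagomir, against 24.5 (A), 28.3 (B) and 49.6 (C) under anti-miR-146a, higher in the C libraries by 0.84 (log2, SE 0.25, limma adjusted p = 0.0192). EPHA8, the neighbour of EPHB2 on chromosome 1, had 1 (B) and 7 (C) recovered reads, not normalized, under the control antagomir, against 11 (A), 9 (B) and 39 (C) under anti-miR-146a. It reached 10 normalized reads only in anti-miR-146a A and C, so it passed the filter through treated libraries alone and no antagomir test is given for it. The C libraries were fitted as higher by 1.97 (log2, SE 0.44, limma adjusted p = 0.00333), but the groups overlapped. Control C (6.53 normalized reads) lay below anti-miR-146a A (10.4) and B (8.21). The call therefore rests largely on the high anti-miR-146a C and the low control B. EPHB1 had 15.3 to 25.5 normalized reads and passed neither contrast.

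Genes that carry Eph and ephrin signals into the cell were described from a list of 57, of which 26 had a row and 22 were tested. For the antagomir 0 of 22 passed in limma, with a median log2 fold change of 0.03 against 0.0046 over all tested genes. With the C term 5 of 22 passed (22.7%, beside 15.4% of all tested genes), 3 higher (ABL2, CDK5 and DVL2) and 2 lower (ACP1 and GRB2), all 5 named here after their values were seen. For the C libraries 10 passed, 7 higher and 3 lower, again beside 29.5% of all genes. The 4 most abundant were CFL1 (cofilin, which cuts actin filaments), ABL2, ADAM10 and CDC42. ADAM10, a protease that cleaves ephrins from the cell surface, had 5486 (B) and 5153 (C) normalized reads under the control antagomir, against 4453 (A), 4230 (B) and 5082 (C) under anti-miR-146a (log2 fold change −0.22, SE 0.12, limma adjusted p = 0.53).

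The effectors that were higher in the C libraries included GRIP1, a scaffold that binds the tails of B-type ephrins and receptors. It had 44.9 (B) and 92.4 (C) normalized reads under the control antagomir, against 47.2 (A), 57.5 (B) and 145.7 (C) under anti-miR-146a (log2 difference 1.28, SE 0.19, limma adjusted p = 1.10e-04). CHN1, which encodes chimaerin, a RAC inhibitor that acts downstream of EPHA4 in mouse, had 349 (B) and 552 (C) normalized reads under the control antagomir, against 355 (A), 364 (B) and 570 (C) under anti-miR-146a (0.66, SE 0.10, limma adjusted p = 1.30e-04). The kinase ABL2 (log2 difference 0.52, SE 0.08) and ANKS1B (1.01, SE 0.25) were the others named by the rule. The adaptors DVL2 (−0.50, SE 0.08), DVL1 (−0.35, SE 0.08) and GIT1 (−0.32, SE 0.08) were lower there.

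The genes whose 5 values lay closest to those of EPHB2 and EPHA2 were looked up among 4183 genes with a mean of at least 100 normalized reads. Likeness was the Euclidean distance between log2(value + 1) centred per gene over the 5 libraries. For EPHB2 they were GPS1 (distance 0.024), HDAC3 (0.035) and ERAL1 (0.036), and for EPHA2 they were CPPED1 (0.082), ARHGAP22 (0.12) and AIG1 (0.14). CPPED1 had 437 (B) and 809 (C) normalized reads under the control antagomir, against 586 (A), 563 (B) and 976 (C) under anti-miR-146a. With 5 libraries this is a description of pattern only.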

How the data were processed

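RNA was sequenced from 2 control and 3 anti-miR-146a libraries. The submitters' processing notes name Trimmomatic 0.35, STAR 2.5.1b, DESeq2 1.22.2 and GRCh38. For the counter, strand setting and annotation release the sources used here name nothing. The authors deposited a signal per library (the read count over a size factor). They also deposited a linear fold ratio with its p-value, raw and adjusted. Values in each deposited column were whole multiples of 1 step within 1e-06 (100% of values), which recovered reads. Column names hold a treatment and a letter, which fixes the group only. The table as used here holds part of the experiment's genes.

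The 6317 genes at 10 or above in 2 or more libraries were tested with limma 3.58.1 (trend) on log2(value + 1), which understates changes of low genes, with the antagomir as the only term. The C contrast came from a model with the antagomir and C against the rest. The antagomir fit had 3 residual degrees of freedom and the fit with C had 2. The spread of each gene was drawn toward that of genes at a like level, so p-values do not rest on its own spread alone. Adjusted p (Benjamini-Hochberg over all tested genes) under 0.05 was the threshold. Alternatives were edgeR 4.0.16 and DESeq2 1.42.0 on recovered reads, other filters and pseudocounts, and libraries left out (R 4.3.3). Fits were also run on counts simulated with and without a C difference, and no outcome of those runs is used here. Positions were those of the table, identical to GENCODE 29 for 17390 of 17390 rows with the same versioned ID. EFNB2 carries another version there, whose exons gave its length. The members, the lists and the contrast of C against the rest were chosen with earlier results of these data known. Named genes were all 9 members, the other family genes, called (or else the most abundant) signalling genes, HRAS and the 3 genes most like 2 members. Self-made intervals cover counting error only.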

Additional observations from a re-analysis of the deposited data

How the results depend on the processing

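Over all genes, the antagomir contrast called 0 genes in limma and 42 in DESeq2, 975 with the C libraries as a term, 1568 without them, 993 with edgeR and that term and 450 with DESeq2 and that term. With the column letter as a replicate block it called 636 genes and 0 of the 9 members. The labels number replicates and the columns carry letters, so no pairing is given by the labels. Between same-lettered libraries, the correlation of deviations from the group means was 0.505 for B and 0.661 for C. The control group holds only control B and control C, so their deviations are equal and opposite in every gene. The B value is therefore not separate from the C difference, and it cannot decide whether the libraries marked B belong together. Leaving out 1 library gave 0 to 12 genes (12 without anti-miR-146a C). Both fits of a count model with the C term were chosen after the data were seen. Members called for the antagomir were 3 without the C libraries, 1 with the C term and 1 with edgeR and that term, and 0 when any 1 library was left out. The C contrast called 1866 genes, 1136 in DESeq2 and 826 with no filter. Leaving out 1 library gave 1489 to 1981 genes and 3 to 5 members.

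Of the members' values for the antagomir, 138 of 152 alternatives kept direction and side of the threshold, and 99 of 107 for the C contrast. For the C contrast, the fits without control B and without control C give the same differences and are not separate alternatives. For the antagomir, the fit with the column letter as a block gives the same differences as the fit without anti-miR-146a A. Over fits that left out 1 library, the antagomir log2 fold change ran from −0.31 to 0.57 for EPHA2, −0.26 to 0.52 for EPHB4, −0.54 to 0.27 for EFNA1 and −0.29 to 0.15 for EFNA5. Without a change of sign it ran from 0.23 to 0.83 for EPHB3 and −0.43 to −0.09 for EFNB1. For EPHB4 it was −0.0041 without the C libraries and −0.021 in DESeq2 with the C term. The C difference ran from −0.41 to 0.13 for EPHA4 and −0.14 to 0.026 for EPHB2. The cause was not tested.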
